A study of Mus musculus with 12 samples.

Results

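The Eph receptors and their ephrin ligands were followed along the posterior neural tube of mouse embryos at embryonic day 9.5. Of 10 genes asked for (Epha1, Epha2, Epha3, Epha4, Epha5, Epha7, Ephb2, Ephb3, Efna5 and Efnb1), 9 had at least 1 probe set that the platform annotation gives to that gene alone, 27 probe sets in all. Ephb2 had none and was not analysed here. Probe sets brighter than the array median on 2 or more of the 12 arrays were used, which kept 19 of the 27. The 4 probe sets of Epha3 were among the 8 not kept, which left 8 of these genes among the 12089 tested. The kept probe set with the highest mean stood for its gene. These 8 lay above the array median in 10 to 12 of the 12 arrays, so none of the 8 passed through a single piece.

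Every array came from CD1 mice, an outbred strain, at 9.5 days after coitus. Tissue of 2 embryos was loosened with pancreatin, a digestive enzyme mixture, at 2 mg per ml for 1 min, and the neural tube was separated with needles and cut into 6 pieces, parts 1 to 6. Each part was measured on 2 Affymetrix arrays labelled as biological replicates (n = 2 for every mean below). The labels do not say which part number is caudal, and no allele or drug distinguished the groups. RNA was amplified over 2 rounds, which favours the 3′ end of transcripts. Signals are linear MAS5 intensities, and the trimmed mean was 100 on every array (array medians 16.7 to 19.1). Detection calls were not used here, so differences among signals of a few units cannot be read. In whole pieces, fewer cells of a type and less RNA per cell cannot be told apart.

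Eph receptors are receptor tyrosine kinases, and ephrins are their ligands, held on the surface of neighbouring cells. A-class receptors mostly bind ephrin-A proteins, which hang on a lipid anchor, and B-class receptors mostly bind ephrin-B proteins, which span the membrane. Epha4 also binds ephrin-B ligands. Signals run into the receptor cell and back into the ligand cell, and contact often ends in repulsion. The family is known for keeping cell populations apart at segment and somite borders, for guiding axons, and for the fusion of the neural folds.

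The part number ran from a region rich in caudal growth zone transcripts to a region rich in neural progenitor transcripts. Cyp26a1, which breaks down retinoic acid in the tail bud, had signals of 2899 and 3217 in part 1 and 28.7 and 16.7 in part 6. Summed over 7 caudal growth zone markers, the signal was 6927 and 7946 in part 1 and 1446 and 1360 in part 6, and 6 of the 7 fell. Nkx1-2 did not pass (slope -0.17 ± 0.084, limma adjusted p = 0.218), with 1266 and 1889 in part 1, 3187 and 2776 in part 3, and 1016 and 938 in part 6. Irx3, a homeobox factor of neural progenitors, had 41.9 and 39.2 in part 1 and 2643 and 2778 in part 6. Sox2, a defining neural progenitor factor, was at 199 and 286 in part 1 and 1426 and 1611 in part 6. Summed over 7 neural progenitor markers, the signal was 548 and 600.4 in part 1 against 5657 and 5895 in part 6, and 6 of the 7 rose with the part number. Other tissues were present in the first parts. The summed signal of 8 presomitic mesoderm markers was 6015 and 4244 in part 1, 4168 and 2242 in part 2, and between 365 and 703 in parts 3 to 6. Of these 8, 4 fell along the parts. The summed signal of 9 surface ectoderm markers was 1402 and 495 in part 1, 572 and 912 in part 2, and between 303 and 488 in parts 3 to 6, and 6 of the 9 fell. Red blood cell markers varied between arrays of one part (36.8 and 9924 in part 1, 76.9 and 6283 in part 6), with 0 of 5 passing the slope test in limma and 0 of 5 at an unadjusted p under 0.05. The sum of 5 notochord and floor plate markers varied too (214 and 68.6 in part 1, 706 and 85.6 in part 2, 118 and 327 in part 4, 225 and 181 in part 6). Of the 4 tested, Foxa2 rose (slope 0.37 ± 0.10, limma adjusted p = 0.0307) and the others did not pass. Of the 8 endothelial markers, Cdh5, Pecam1, Tek, Tie1 and Emcn were not kept by the filter. Etv2 fell (slope -0.22 ± 0.055, limma adjusted p = 0.0171), and Kdr and Cldn5 did not pass the slope test. Cldn5 had 2.68 and 11.1 in part 1, 41.3 and 56.2 in part 3, and 17.3 and 17.9 in part 6.

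Most of the tested Eph receptors fell with the part number, and the genes that rose were 1 receptor and 1 ligand. Over the slope of log2 signal per part, 5 of the 8 genes fell (Epha1, Epha2, Epha4, Epha5 and Ephb3), 2 rose (Epha7 and Efna5), and Efnb1 did not pass (limma, adjusted over all genes). Among all genes tested 12.7% passed the slope test, 7.08% falling and 5.66% rising. The median slope of the 8 genes was -0.22 log2 units per part, and that of all genes was -0.0073 (5th to 95th percentile -0.21 to 0.16). The genes were chosen with earlier results of these data known, so setting them against all genes is a description only. Between parts 6 and 1, Epha1, Epha2, Epha4 and Epha5 were lower in part 6 (4.92% of all genes were) and Epha7 was higher (4.17%), 9.09% of all genes passing in either direction. The F test among the 6 parts passed for Epha1, Epha2, Epha4, Epha5 and Epha7, against 4.91% of all genes. Some of these F calls depended on a setting or an array. Epha5 lost it with an offset of 1 (adjusted p = 0.0568), with quantile normalization (0.0544), with no filter (0.0818), without both arrays of part 6 (0.511) and without replicate 2 of part 3 or any single array of parts 4 to 6 (up to 0.210). Epha2 lost it with no filter (0.0519), without both arrays of part 6 (0.294) and without replicate 2 of part 2, replicate 1 of part 6 or any single array of parts 3 and 4 (up to 0.109). Epha7 lost it with the mean of its kept probe sets (0.205), without either array of part 6 (0.0689 and 0.0742) and without both (0.313). Between consecutive parts, 0 steps passed in limma for the 8 genes, where 0.0926% of all gene and step pairs did. At an unadjusted p under 0.05, the steps from part 1 to part 6 in order held 2, 2, 1, 1 and 4 of the 8 genes, and 10.8%, 5.03%, 3.23%, 3.63% and 3.83% of all genes.

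**Figure D1:**
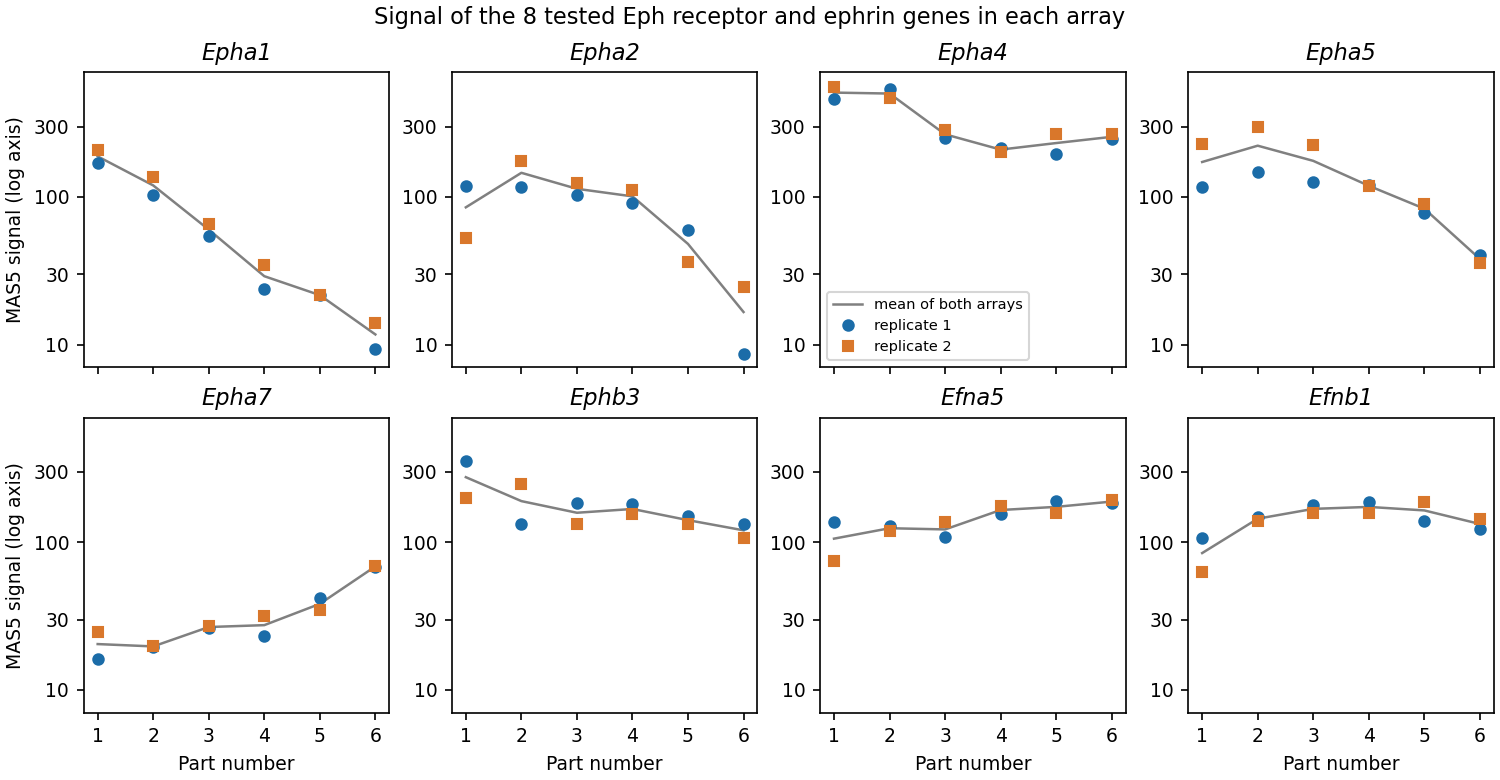
MAS5 signal (log axis) against part number for the 8 tested Eph receptor and ephrin genes, with replicate 1 as circles, replicate 2 as squares and the mean of both as a line. Epha1 falls through all 6 parts (188 to 11.7), Epha4 falls between parts 2 and 3, Epha2 and Epha5 are lowest in part 6, and Epha7 is highest in part 6 (68.8).

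Promoter sequences are shown for the 4 A-class receptors that fell and for Epha7, the receptor that rose. Each is the 250 bases before the gene's start, 5′ to 3′ on the strand of the gene, from RefSeq on GRCm38.p6. All 10 genes had such a window in the table. Capitals mark matches to 4 searched motifs on either strand: TTTATT (core of the Cdx site), CTTTGA (core of the TCF/LEF site), AGGTCA (core of the nuclear receptor site) and AGGTGTGA (core of the T-box site). No match overlapped another.

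Epha1, chr6:42373269-42373518, minus strand: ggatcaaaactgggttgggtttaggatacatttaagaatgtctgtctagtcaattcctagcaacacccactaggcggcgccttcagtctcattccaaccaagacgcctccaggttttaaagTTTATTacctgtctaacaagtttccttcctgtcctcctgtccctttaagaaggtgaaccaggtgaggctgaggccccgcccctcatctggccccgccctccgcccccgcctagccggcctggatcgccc

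Epha2, chr4:141300971-141301220, plus strand: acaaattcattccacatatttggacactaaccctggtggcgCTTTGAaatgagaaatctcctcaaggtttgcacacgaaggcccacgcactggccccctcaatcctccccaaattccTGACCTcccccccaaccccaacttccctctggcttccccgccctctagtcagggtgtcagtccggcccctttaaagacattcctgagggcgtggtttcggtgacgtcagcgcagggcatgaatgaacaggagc

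Epha4, chr1:77515089-77515338, minus strand: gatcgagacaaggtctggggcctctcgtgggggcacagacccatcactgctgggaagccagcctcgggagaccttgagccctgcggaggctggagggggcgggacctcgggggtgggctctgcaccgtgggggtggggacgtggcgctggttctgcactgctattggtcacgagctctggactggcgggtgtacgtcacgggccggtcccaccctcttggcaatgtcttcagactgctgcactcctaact

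Epha5, chr5:84417383-84417632, minus strand: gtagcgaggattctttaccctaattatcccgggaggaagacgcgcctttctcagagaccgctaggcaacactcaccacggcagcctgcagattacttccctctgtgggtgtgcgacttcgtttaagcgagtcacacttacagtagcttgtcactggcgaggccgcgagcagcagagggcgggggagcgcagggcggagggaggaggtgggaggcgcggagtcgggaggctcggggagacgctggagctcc

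Epha7, chr4:28812881-28813130, plus strand: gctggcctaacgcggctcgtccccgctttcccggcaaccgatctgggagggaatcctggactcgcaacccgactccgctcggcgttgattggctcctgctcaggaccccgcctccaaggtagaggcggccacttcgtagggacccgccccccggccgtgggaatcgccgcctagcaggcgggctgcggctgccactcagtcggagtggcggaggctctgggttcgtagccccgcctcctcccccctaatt

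Epha1 held TTTATT once, starting 129 bases before the gene's start. Epha2 held CTTTGA, starting 209 bases before the start, and AGGTCA on the opposite strand (printed as its reverse complement, TGACCT). The printed TGACCT begins 133 bases before the gene's start. None of the 4 motifs was found in the windows of Epha4, Epha5 or Epha7, nor in those of Epha3, Ephb2, Ephb3, Efna5 or Efnb1. Of 32851 windows of this length, 18.1% held TTTATT, 13.8% CTTTGA, 14% AGGTCA and 1.12% AGGTGTGA. The windows of Epha1 and Epha2 had the lowest GC content of the 10 genes (54.4% and 55.6%), and that of Efna5 the highest (74.8%). A match is a run of letters and no evidence of binding.

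Among the A-class receptors, Epha1 had the steepest course. Epha1 is the founding member of the family and an epithelial receptor. Its signal in replicates 1 and 2 was 170.3 and 206 in part 1, 104 and 136 in part 2, 54.4 and 65.7 in part 3, 23.6 and 34.5 in part 4, 21.63 and 21.60 in part 5, and 9.38 and 14.0 in part 6. The pairs of arrays of neighbouring parts did not overlap anywhere along the series. The mean went from 188 ± 25.6 to 11.7 ± 3.29 (SD), 16.1-fold lower in part 6. The slope was -0.73 ± 0.041 log2 units per part (SE, adjusted p = 1.65e-07), with -0.73 in the arrays of each replicate number. Part 6 lay below part 1 by a log2 difference of -3.59 ± 0.24 (adjusted p = 2.26e-05). On the log2 scale, 17.9% of the distance between the end parts was covered by part 2, 44.0% by part 3, 70.8% by part 4 and 80.3% by part 5. A second kept probe set of Epha1, at 29.98 and 41.4 in part 1 and 3.27 and 8.94 in part 6, had a slope of -0.39 ± 0.040. It lay above the array median on 5 of the 12 arrays, among them all arrays of parts 1 and 2. Having been kept mainly through the parts where it is high, its fall is given as a description. The third probe set of Epha1 was not kept.

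Epha4 fell in a single stretch near the start of the series. This receptor binds ligands of both classes and is known at somite borders and in spinal cord wiring. Signals were 462 and 557 in part 1, 535 and 469 in part 2, 249 and 283 in part 3, 216 and 203 in part 4, 195 and 268 in part 5, and 246 and 265 in part 6. All 4 arrays of parts 1 and 2 lay above all 8 arrays of parts 3 to 6, which overlapped among themselves apart from parts 3 and 4 and parts 4 and 6. The mean was 509.6 ± 66.9 in part 1 and 256 ± 13.8 in part 6, 1.99-fold lower, with its lowest value, 209 ± 8.67, in part 4. The slope was -0.24 ± 0.055 (adjusted p = 0.00988), and the log2 difference between the end parts was -0.98 ± 0.20 (adjusted p = 0.0138). By part 2, 1.85% of the log2 distance between the ends was covered, and by part 3 94.5%. The step from part 2 to part 3 was -0.91 ± 0.20 and did not pass by itself (unadjusted p = 0.00112, adjusted p = 0.242). All 5 kept probe sets of Epha4 had slopes below 0, from -0.25 to -0.11, and 3 of them passed. Without both arrays of part 1 the slope was -0.21 with an adjusted p of 0.138. The difference between the ends was lost without replicate 2 of part 1, replicate 1 of part 6 or replicate 2 of part 6 (adjusted p from 0.0507 to 0.0857).

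Epha2 kept its signal through part 4 and was lowest in part 6. Epha2 is known in the primitive streak and notochord of the early embryo and in epithelia. Its signals were 118 and 52.4 in part 1, 118 and 174 in part 2, 104 and 124 in part 3, 91.0 and 111 in part 4, 59.7 and 36.4 in part 5, and 8.67 and 24.5 in part 6. Both arrays of part 6 were below all others. On the signal scale the arrays of part 1 differed from each other more than those of any other part, and they overlapped with parts 2 to 5. The mean was highest in part 2 (146 ± 39.8) and went from 85.1 ± 46.3 in part 1 to 16.6 ± 11.2 in part 6, 5.12-fold lower. The slope was -0.44 ± 0.12 (adjusted p = 0.0301), and the difference between parts 6 and 1 was -2.10 ± 0.45 (adjusted p = 0.0185). The slope call rested on single arrays: it was lost without replicate 1 of part 1, 2 or 6 or replicate 2 of part 2, 5 or 6 (adjusted p from 0.0504 to 0.104), and was -0.19 (adjusted p = 0.404) without both arrays of part 6. The difference between the ends was lost without replicate 1 of part 1 or of part 6 (0.0790 and 0.115).

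Epha5, a receptor of the developing nervous system known for topographic axon maps, had a course close to that of Epha2. Its signals were 116 and 229 in part 1, 148 and 297 in part 2, 126 and 225 in part 3, 120.4 and 118 in part 4, 77.6 and 89.0 in part 5, and 40.6 and 35.5 in part 6. Replicate 2 was the higher array in parts 1 to 3, and from part 4 on both replicates were close. The arrays of part 6 were below all others, and those of part 5 were below all of parts 1 to 4. The mean was highest in part 2 (223 ± 105.0) and went from 173 ± 79.6 in part 1 to 38.0 ± 3.60 in part 6, 4.54-fold lower. The slope was -0.41 ± 0.080 (adjusted p = 0.00437), and the difference between the end parts was -1.98 ± 0.40 (adjusted p = 0.0138). All 4 kept probe sets of Epha5 fell, with slopes from -0.45 to -0.19. Without both arrays of part 6 the slope was -0.27 (adjusted p = 0.122). The difference between the ends was lost without replicate 2 of part 1 or either array of part 6 (adjusted p from 0.0576 to 0.0909).

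Epha7 was the receptor that rose. It is known in the cranial neural folds, where a short form takes part in neural fold adhesion. Signals were 16.1 and 24.8 in part 1, 19.6 and 19.9 in part 2, 26.3 and 27.1 in part 3, 23.3 and 31.7 in part 4, 41.8 and 34.9 in part 5, and 68.4 and 69.2 in part 6. The arrays of part 1 overlapped with those of parts 2 and 4, those of part 3 with part 4, and the arrays of part 5 and then of part 6 lay above all arrays of lower-numbered parts. The mean went from 20.5 ± 6.16 to 68.8 ± 0.580, 3.36-fold higher in part 6. The slope was 0.30 ± 0.045 (adjusted p = 0.000748), and the difference between the ends was 1.58 ± 0.21 (adjusted p = 0.00151). The probe sets of Epha7 disagreed. A second kept probe set had 44.6 and 28.9 in part 1 and 41.8 and 26.8 in part 6, with a slope of -0.034 ± 0.074 (adjusted p = 0.848), and the other 2 were not kept. With the mean of both kept probe sets the slope was 0.13 (adjusted p = 0.0953) and the difference between the ends 0.74 (adjusted p = 0.0796), so the rise of Epha7 rests on 1 probe set.

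Epha3, a receptor of mesenchyme and of axon guidance, gave signals from 0.109 to 5.54 over its 4 probe sets and 12 arrays. None of these lay above the median of its array, and no course along the parts can be read from them.

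**Figure D2:**
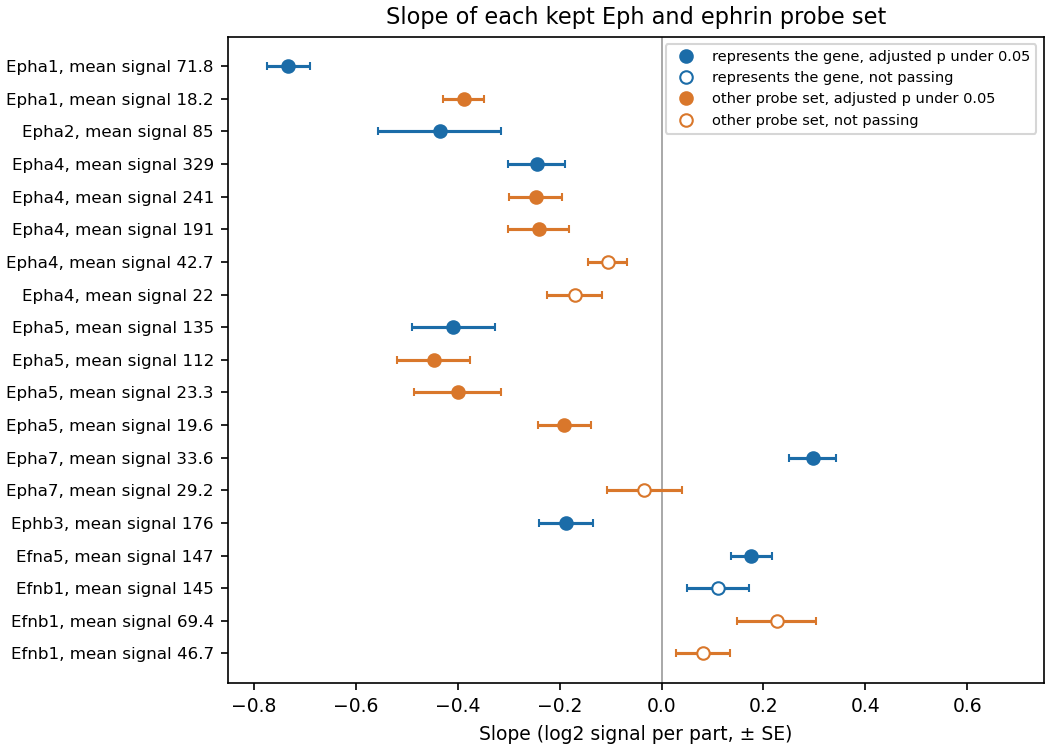
Slope of log2 signal per part (± SE) for each of the 19 kept probe sets of the 8 genes, labelled with the probe set's mean signal. The probe sets of Epha1, Epha4 and Epha5 all lie below 0, the 3 of Efnb1 all lie above 0 without passing, and those of Epha7 lie on both sides of 0 (0.30 and -0.034). The dimmer probe set of Epha1 was above the array median on 5 of the 12 arrays, mainly those of parts 1 and 2.

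The B-class receptor Ephb3, known for commissural axons and for cell sorting in the gut, fell with a call that rested on single arrays. Its signals were 354 and 199.6 in part 1, 133 and 248 in part 2, 184 and 134 in part 3, 181 and 156 in part 4, 150.05 and 133 in part 5, and 134 and 107 in part 6. The first parts were the most variable, and both arrays of part 1 lay above all arrays of parts 3 to 6, while part 2 spanned the range of parts 3 to 5. The mean went from 277 ± 108.9 in part 1 to 121 ± 19.1 in part 6, 2.29-fold lower. The slope was -0.19 ± 0.053 (adjusted p = 0.0326), the difference between the ends was -1.12 ± 0.34 (adjusted p = 0.0754), and the F test gave an adjusted p of 0.478. The slope call was lost without replicate 1 of part 1, replicate 2 of part 2, replicate 2 of part 5 or either array of part 6 (adjusted p from 0.0508 to 0.116). It was also lost without both arrays of part 1 (0.238), without both of part 6 (0.163) and with no filter on low signals (0.0558). The single probe set of Ephb3 allows no check against another.

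Marker levels of other tissues moved with some of these genes. In part 1 the array with the higher surface ectoderm sum (1402 against 495) was also the array with the higher Ephb3 signal (354 against 199.6) and the higher Epha2 signal (118 against 52.4). In part 2 replicate 2 was the higher in all of these (912 against 572, 248 against 133, and 174 against 118). The order was not shared by all: in part 1 Epha1, Epha4 and Epha5 were lower in the array with the higher ectoderm sum (170.3 against 206, 462 against 557 and 116 against 229). In part 3 Epha2 was too (104 against 124, with ectoderm sums of 488 and 344). Epha2 followed the ectoderm sum in part 4 (111 against 91.0, with sums of 440 and 396). It also did so in part 5 (59.7 against 36.4, with sums of 419 and 303) and in part 6 (24.5 against 8.67, with sums of 445 and 383). Ephb3 followed the ectoderm sum in part 3 (184 against 134) and in part 5 (150 against 133, with sums of 419 and 303). Ephb3 was lower in the array with the higher sum in part 4 (156 against 181, with sums of 440 and 396). The same held for Ephb3 in part 6 (107 against 134, with sums of 445 and 383). Among single ectoderm markers, Krt8, a keratin of simple epithelia, had 449.9 and 149 in part 1 and 32.6 and 34.5 in part 6. Tfap2a, Tfap2c and Grhl2 did not pass the slope test. Tfap2c had 204 and 44.0 in part 1 and 205 and 290 in part 6, and the slope of Grhl2 was 0.0026 ± 0.049. The presomitic mesoderm sum, like Epha4, was lower from part 3 on. Tbx6, a defining factor of that tissue, had 518 and 188 in part 1, 272 and 33.7 in part 2, and 7.54 and 13.2 in part 3. Of the presomitic markers, Msgn1, Dll1, Lfng and Mesp2 did not pass the slope test (limma adjusted p from 0.0537 to 0.852). Dll1 had 453 and 226 in part 1, 49.8 and 23.9 in part 3, and 182 and 194 in part 6. Most of the presomitic sum in part 1 was Rspo3 (2581 and 2641) and Hes7 (1419 and 834). Epha4 was as high in replicate 2 of part 2 (469) as in replicate 1 of part 1 (462), where Tbx6 was at 33.7 and 518 and the presomitic sum at 2242 and 6015. The part of these tissues in the courses of Epha1, Epha2, Epha4, Epha5 and Ephb3 was not tested.

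Marker sums of other cell types were also higher in part 6, as Epha7 and Efna5 were. The summed signal of 5 neural crest markers was 114 and 155 in part 1 and 427 and 315 in part 6, and 2 of the 5 rose: Foxd3 (slope 0.79 ± 0.092, adjusted p = 8.45e-05) and Tfap2b (0.44 ± 0.13, adjusted p = 0.0442). Sox10 (0.020 ± 0.040, adjusted p = 0.804), Snai2 (-0.092 ± 0.10, 0.615) and Sox9 (0.39 ± 0.13, 0.0667) did not pass the slope test. The sum of 5 early neuron markers was 99.1 and 117 in part 1 and 464 and 470.0 in part 6, with 1 of the 4 tested rising (Neurog2, a proneural factor, slope 1.09 ± 0.094) and 1 falling (Stmn2, -0.26 ± 0.037). Most of that sum in part 6 was Neurog2, at 0.341 and 2.52 in part 1 and 354 and 349 in part 6. Tubb3 and Elavl3 did not pass the slope test in limma (adjusted p = 0.725 and 0.140). The part of these cell types in the courses of Epha7 and Efna5 was not tested.

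Among the ligands, Efna5 rose along the parts. Ephrin-A5 is a repellent of growing axons and is known in closure of the cranial neural tube. Its signals were 137 and 74.8 in part 1, 130.1 and 119 in part 2, 108 and 137 in part 3, 155 and 176 in part 4, 190.1 and 158 in part 5, and 184 and 195 in part 6. The 6 arrays of parts 4 to 6 lay above the 6 arrays of parts 1 to 3, and within each of these sets neighbouring parts overlapped, apart from part 4 against part 6. The mean went from 106 ± 44.1 to 189 ± 7.75, 1.78-fold higher in part 6. The slope was 0.18 ± 0.039 (adjusted p = 0.00928), while the difference between the ends, 0.87 ± 0.26, did not pass (adjusted p = 0.0747), nor did the F test (adjusted p = 0.320). That difference turned on the arrays of part 1: it was 1.29 (adjusted p = 0.00948) without replicate 1 and 0.45 (adjusted p = 0.210) without replicate 2. Without both arrays of part 6 the slope was 0.19 (adjusted p = 0.0653). The second probe set of Efna5 reached at most 9.19 and was not kept.

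The transmembrane ligand Efnb1, whose loss disturbs craniofacial and skeletal patterning, was lowest in part 1 and showed no slope past the threshold. Its signals were 107 and 62.5 in part 1, 149.8 and 139.7 in part 2, 179 and 159 in part 3, 189 and 159 in part 4, 140.2 and 189 in part 5, and 123 and 144 in part 6. Both arrays of part 1 were below the other 10. The mean was highest in part 4 (174 ± 20.9), against 84.7 ± 31.3 in part 1 and 133 ± 14.8 in part 6. The slope was 0.11 ± 0.060 (adjusted p = 0.268), the difference between the ends was 0.67 ± 0.25 (adjusted p = 0.147), and parts 3 and 4 against parts 1 and 6 gave 0.69 ± 0.18 (adjusted p = 0.151). Averaged over its 3 kept probe sets, Efnb1 was higher in part 6 than in part 1 (0.90, adjusted p = 0.0366). In a fit of all kept probe sets, its second probe set had 32.6 and 19.3 in part 1 and 95.8 and 81.9 in part 6. That probe set passed between the ends (1.65 ± 0.27, adjusted p = 0.0063) and in the F test (adjusted p = 0.0380). Its slope did not pass (0.23 ± 0.078, adjusted p = 0.0935). The third probe set of Efnb1 did not pass between the ends (0.38 ± 0.32, adjusted p = 0.572).

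To place the changes, parts 3 and 4 were set against parts 1 and 2 (the early change) and parts 5 and 6 against parts 3 and 4 (the late change). Both contrasts were chosen after the values were seen, and they share parts 3 and 4. The early change passed for 2 of the 8 genes, both lower, against 3.91% of all genes in either direction and 1.98% lower: Epha1 at -1.74 ± 0.17 (adjusted p = 0.00046) and Epha4 at -1.08 ± 0.14 (adjusted p = 0.00268). The late change passed for 3, against 1.7% of all genes (0.794% lower and 0.902% higher): Epha1 at -1.18 ± 0.17 (adjusted p = 0.00805), Epha2 at -1.81 ± 0.32 (adjusted p = 0.0211) and Epha7 at 0.83 ± 0.15 (adjusted p = 0.0228). Epha2 had an early change of 0.0023 ± 0.32 and Epha4 a late change of 0.037 ± 0.14. The early change of Efnb1, 0.63 ± 0.18, did not pass (adjusted p = 0.105). It passed with the mean of the kept probe sets of Efnb1 (0.70, adjusted p = 0.0429) and for its second probe set (0.98 ± 0.19, adjusted p = 0.0283). Epha5 had -0.38 ± 0.28 early and -1.26 ± 0.28 late. The late value of Epha5 had an adjusted p of 0.0676. It passed with the replicate number as a block (0.0231), an offset of 16 (0.0442), the filter at the 75th percentile (0.0331) and the mean of its kept probe sets (0.0250). With an offset of 1, no filter or quantile normalization it did not pass. The late value of Epha7 was 0.44 (adjusted p = 0.362) with the mean of its kept probe sets, and its call was also lost with no filter (0.0525). The late calls of Epha2 and Epha7 were lost without any of 6 and 7 single arrays of parts 3 to 6 (adjusted p up to 0.0959 and 0.106).

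The difference between the late and the early change was itself tested. It passed for 0 of the 8 genes in limma and for 0.496% of all genes. At an unadjusted p under 0.05 there were 3 of the 8 and 7.46% of all genes. For Epha2 it was -1.82 ± 0.55 (unadjusted p = 0.00852, adjusted p = 0.338), for Epha4 1.12 ± 0.24 (0.00105 and 0.124) and for Efnb1 -0.84 ± 0.31 (0.0241 and 0.527). The early course of Epha4 and the late course of Epha2 therefore describe their values, and neither difference passed the threshold. Parts 3 and 4 against the end parts passed for 0 of the 8 genes in limma and for 1.03% of all genes. At an unadjusted p under 0.05 there were 5 of the 8 and 10.2% of all genes.

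**Figure D3:**
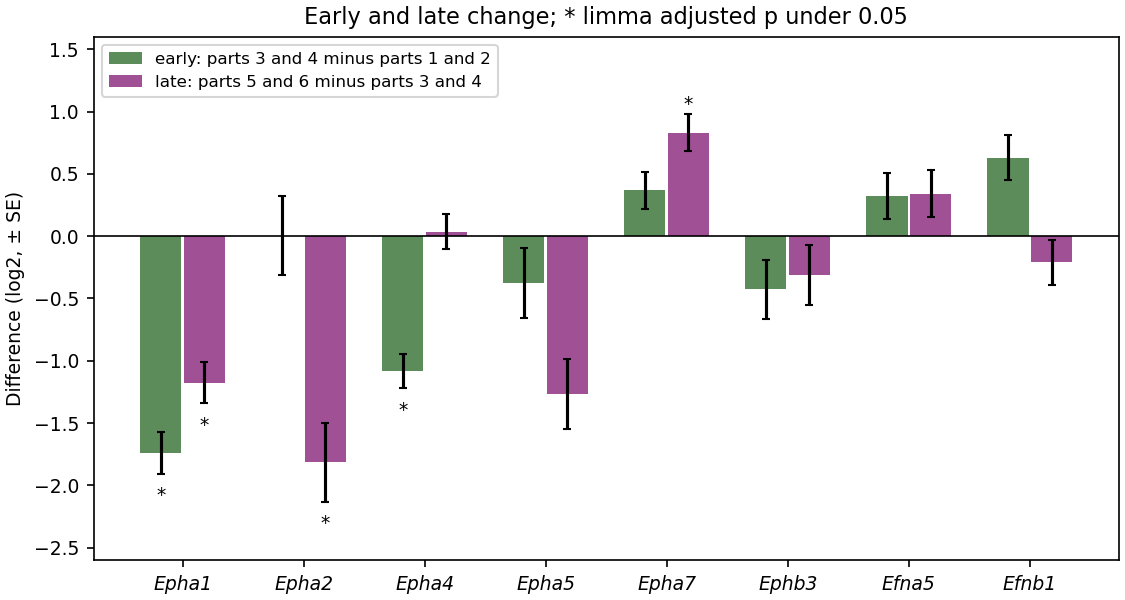
Log2 differences (± SE) for the early change (parts 3 and 4 minus parts 1 and 2) and the late change (parts 5 and 6 minus parts 3 and 4) of the 8 genes, with an asterisk at a limma adjusted p under 0.05. Epha4 passes in the early change (-1.08), Epha2 (-1.81) and Epha7 (0.83) in the late change, and Epha1 in both.

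The arrays of replicate 1 and those of replicate 2 gave slopes of the same sign for each of the 8 genes. The least even pairs, replicate 1 and then replicate 2, were Epha5 (-0.28 and -0.53), Epha2 (-0.54 and -0.33) and Efnb1 (0.022 and 0.20). The slope differed between replicates for 0 of the 8 genes in limma, with 0% of all genes passing. At an unadjusted p under 0.05 there were 0 of the 8 and 6.6% of all genes. Replicate 2 against replicate 1, with the part as a covariate, passed for 0 of the 8, with 1.63% of all genes passing. At an unadjusted p under 0.05 there were 2 of the 8, near the 19.8% of all genes. These 2 were Epha5, higher by 0.46 ± 0.18 in replicate 2 (adjusted p = 0.214), and Epha1, higher by 0.30 ± 0.093 (adjusted p = 0.139).

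Across the 12 arrays, Epha1 ran most closely with Epha4 (r = 0.84) and Epha5 (r = 0.82) among the 8 genes, and Epha2 with Epha5 (r = 0.80). Epha7 ran against Epha2 (r = -0.86), Epha1 (r = -0.83) and Epha5 (r = -0.83). Among all genes tested, the signals most like Epha1 were those of Sting1, an innate immune adaptor (r = 0.98), Evx1os (r = 0.98) and Cldn9, a tight junction claudin (r = 0.97). Those most like Epha2 were Col6a1, a collagen VI chain (r = 0.94), Galnt4 (r = 0.93) and Hoxc10, a posterior Hox gene (r = 0.93). For Epha4 they were Lmo2, a transcription cofactor of blood and vessels (r = 0.94), Scara5 (r = 0.93) and Rab20 (r = 0.93). Epha5 was most like Cdx4, a caudal homeobox factor (r = 0.96), Gcnt2 (r = 0.94) and Skil (r = 0.93). The closest to Epha7 were Top1mt, the mitochondrial topoisomerase (r = 0.96), Pantr1 (r = 0.96) and Acvr2a, an activin receptor (r = 0.95). Ephb3 was nearest to Cybc1 (r = 0.92), Micall2 (r = 0.92) and Ccdc68 (r = 0.91), and Efna5 to Wdr90 (r = 0.96), Zfhx3 (r = 0.93) and Pbx3, a Hox cofactor (r = 0.93). These r values describe 12 arrays that share 2 embryos and an ordered series.

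Of 12 other Eph and ephrin genes, 9 were tested, and Epha6, Epha8 and Epha10 were not kept by the filter. Efna1 and Ephb6 fell along the parts, Efnb2 rose, and 6 did not pass, against the 12.7% given above for all genes. Efna1, an ephrin-A ligand, had 126 and 74.3 in part 1, 34.8 and 27.0 in part 2, 13.2 and 9.17 in part 3, 7.74 and 8.23 in part 4, 3.18 and 1.14 in part 5, and 0.810 and 5.45 in part 6. Its level was above the array median in 4 of 12 arrays, those of parts 1 and 2, so the values from part 3 on carry little order. Having passed the filter through parts 1 and 2 alone, its fall is given as a description.

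Efnb2, the ephrin-B ligand of arteries and of posterior somite compartments, took the opposite course. It had 18.0 and 13.6 in part 1, 49.5 and 52.8 in part 2, 68.1 and 96.0 in part 3, 86.8 and 91.5 in part 4, 132 and 77.8 in part 5, and 115 and 139.8 in part 6. Both arrays of part 1 were below the rest, and parts 3 to 5 overlapped. Part 6 was 8.06-fold higher than part 1, and the slope was 0.47 ± 0.073 (adjusted p = 0.000825), with a second kept probe set at 0.38 ± 0.047. Over the 12 arrays Efnb2 ran against Epha4 (r = -0.82), which can bind it, and against Epha1 (r = -0.87). Ephb6, a receptor without kinase activity, went from 42.8 ± 9.41 to 13.1 ± 12.6 with a slope of -0.27 ± 0.070 (adjusted p = 0.0209). Its arrays of part 6 were 22.01 and 4.15, and without replicate 2 of part 6 the slope was -0.16 and the difference between the ends -0.82 in place of -1.64. The slope call was lost without replicate 1 of part 1 (0.0658) and without both arrays of part 1 (0.116). Efna3 had a slope of -0.13 ± 0.056 (adjusted p = 0.148) from its brightest probe set and -0.24 ± 0.058 (adjusted p = 0.0180) from its second.

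**Figure D4:**
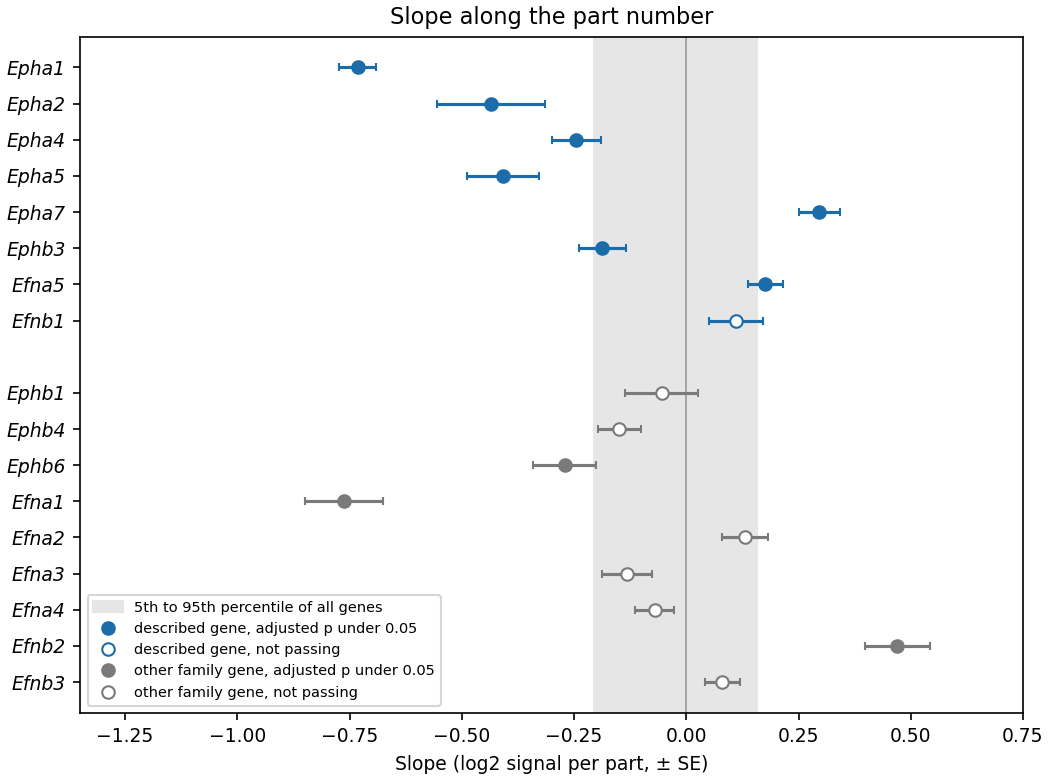
Slope of log2 signal per part (± SE) for the 8 genes and 9 other tested Eph and ephrin genes, with filled points at a limma adjusted p under 0.05 and the grey band the 5th to 95th percentile of all genes. Among the 8 genes Epha1 (-0.73) lies farthest below 0 and Epha7 (0.30) farthest above it. Efna1 was kept through parts 1 and 2 alone, and its point has no rank.

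Most genes for proteins that carry or modify Eph and ephrin signals did not pass the slope test. Of 36 listed, 32 had a probe set of their own and 30 were tested. Of these 30, 4 fell, 1 rose and 25 did not pass, with a median slope of 0.014 against -0.0073 for all genes. Among all genes 7.08% fell and 5.66% rose, so the share of partners that passed stood near the background. Rgs3, which binds the tail of ephrin-B proteins and restrains G protein signals, fell with -0.16 ± 0.035 (adjusted p = 0.00744). Ryk, a kinase-inactive receptor that associates with Eph receptors, fell with -0.12 ± 0.028 (adjusted p = 0.0146). The guanine nucleotide exchange factors Tiam1 (-0.14 ± 0.036, adjusted p = 0.0209) and Vav3 (-0.24 ± 0.068, adjusted p = 0.0308) fell as well. The gene that rose, named after its values were seen, was Adam10, a protease that cuts ephrins (0.12 ± 0.035, adjusted p = 0.0418). The count of 5 went down to 1 without both arrays of part 1 or of part 6, to 3 with no filter, and to as few as 1 without single arrays of part 1, 5 or 6.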

How the data were processed

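Per the labels, the posterior neural tube of 2 embryos was cut into 6 pieces, each with 2 arrays. The deposited values are linear intensities, 1 signal per probe set. The authors used MAS5 for them (source: per the submitters' processing notes), and which version and settings was not given in the sources used. Trimming the highest and lowest 2% of values gave a mean of 100 on every array.

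Of 45101 probe sets, 64 were controls. The platform annotation named 1 gene for 34958, several for 932 and none for 9211, and only the first kind was used; 34754 matched the reference table by Entrez identifier. Probe sets above the array median on 2 or more of the 12 arrays entered the fits (21679), and each of 12089 genes was represented by its brightest kept probe set. An offset of 4.43, which is 0.25 times the overall median signal (17.7), was added before taking log2, so differences understate the change of dim genes. Slopes, the F test and all contrasts were fitted over all genes and 12 arrays with limma 3.58.1 in R 4.3.3, two-sided, with Benjamini-Hochberg adjustment and a threshold of 0.05; every p printed comes from these fits. Slopes of further probe sets are from a fit of all kept probe sets. The steps were tested on simulated data.

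The genes and lists were chosen with earlier results of these data known. All 10 genes are named, other family genes where they pass a test or were not kept, up to 4 partners with the smallest slope p, and per called gene the 3 genes with the highest r, leaving out clone and predicted-gene symbols. Sox2, Krt8, Tbx6, Foxd3, Tfap2b, Neurog2, Stmn2 and Efna3 were named after their values were seen. The same holds for Etv2, Kdr, Cldn5, Foxa2, Msgn1, Dll1, Lfng, Mesp2, Rspo3, Hes7, Sox10, Snai2 and Sox9.

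Same-numbered arrays deviated together from their piece means in 15 of 15 pairs of pieces (r from 0.18 to 0.34, median 0.23). The design names 2 embryos, so same-numbered arrays were taken to come from 1 embryo. The main slopes, F tests and contrasts were nevertheless fitted without the replicate number as a block. They therefore treat pieces of an embryo as independent. The number of arrays limits the precision. The alternatives were other offsets (1 and 16), no filter, a filter at the 75th percentile, quantile normalization, the mean of a gene's kept probe sets, the replicate block, and leaving out single arrays or an end part.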

Additional observations from a re-analysis of the deposited data

How the results depend on the processing

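The count of 7 genes passing the slope test was 3 without both arrays of part 6. The 5 genes passing the F test became 3 with no filter and 2 without both arrays of part 6. For parts 3 and 4 against the end parts, where 0 passed, 1 passed with an offset of 16, 1 with the mean of all kept probe sets and 2 with the filter at the 75th percentile. No alternative reversed the direction of a called value.

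With single arrays left out, the slope count ranged from 5 to 7, the F test count from 2 to 5, the count between parts 6 and 1 from 2 to 6, and the count of parts 3 and 4 against the ends from 0 to 2. The early change ranged from 2 to 3 and the late change from 1 to 4, and the counts for steps, replicates, the replicate slopes and late minus early stayed at 0. Other family genes ranged from 2 to 4 and partners from 1 to 5. The cause of these changes was not tested, apart from there being fewer arrays in each such fit.

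With the replicate block, the slope count was 7, and among the values of single genes the block changed the call of the late change of Epha5 only (-1.26, adjusted p = 0.0231). Quantile normalization moved array medians by -0.031 to 0.037 on the log2 scale. Signals of a few units, as for Epha3 and the dim probe sets of Epha7, limit what can be read at the low end.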
